A study of Mus musculus with 11 samples.

Results

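Class II antigen presentation is described here through 10 mouse genes, chosen by symbol: the chains H2-Aa, H2-Ab1 and H2-Eb1, the invariant chain gene Cd74, the peptide editors H2-DMa, H2-DMb1 and H2-DMb2, the editor's inhibitors H2-Oa and H2-Ob, and the coactivator Ciita. All 10 had a feature in the table of the DMBA-treated tumours, where 26 of 45220 array features carry a member's symbol. In the table of the untreated tumours 9 of the 10 had a feature, each a single one of 22575, and H2-DMb2 was not analysed there. The members stand among 19087 and 16887 named genes in these tables.

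The tested RNA came from mammary tumours of mice that carry MMTV-Neu+/-, in which the mouse mammary tumour virus promoter drives the Neu oncogene in mammary epithelium. DMBA-treated tumours (n = 5) came from mice given dimethylbenzanthracene (DMBA), a polycyclic hydrocarbon carcinogen, and untreated tumours (n = 6) from mice of the same transgene without it. Each 2-colour array set 1 tumour against a common RNA pool from whole mouse, so every value below is a log2 ratio of tumour over that pool, not over normal mammary gland. DMBA-treated and untreated tumours were run on different array platforms. Strain, age and dose are not stated in the labels. Nor is it stated whether each tumour had a mouse of its own. A p-value here therefore sets the mean ratio against the spread from sample to sample, part of which may be technical.

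Class II molecules are pairs of an alpha and a beta chain that show peptides from the endosome to CD4+ T cells. The invariant chain, encoded by Cd74, fills the groove during transport, and the H2-DM pair removes its last fragment (CLIP) and lets peptides compete, while the H2-O pair holds H2-DM back. Dendritic cells and B cells make class II molecules at all times, and interferon gamma can raise them or switch them on in other cells, macrophages and epithelium included. In both settings the genes are read under Ciita, which binds no DNA itself and docks on RFX, CREB and NF-Y proteins at the X and Y boxes of class II promoters.

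The direction of the ratio was read from organ genes that a whole mouse pool holds, since the dye field of the tumour channel names a kit. Liver genes averaged between -4.32 and -3.62 on the DMBA-treated arrays and between -4.71 and -4.08 on the untreated arrays, and skeletal muscle genes between -3.60 and -2.69 and between -3.38 and -2.84. Brain genes, of which 6 of 9 were lower in DMBA-treated and 5 of 9 in untreated tumours, averaged between -2.19 and -1.67 and between -2.26 and -2.03. Tumour over pool is the likely direction, and all signs rest on it. Of 7 luminal epithelium markers, which the labelled tissue should hold, 6 were higher than the pool in DMBA-treated tumours and 6 in untreated tumours. Of all genes, 26.1% were higher and 31.7% lower in DMBA-treated tumours, and 28.8% and 32.1% in untreated tumours (limma, adjusted p under 0.05). Signal strengths were not used here, so a ratio near 0 may come from features that are dim in both channels. Precision is limited by how many arrays there are.

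Letters like those of the X and Y boxes were found in 6 of the 7 members whose promoter is in the RefSeq table of build GRCm38.p6, which is C57BL/6J sequence. These 6 stretches are shown because each holds ATTGG with 1 or both of the X box forms searched before it, and neither X box form is in all 6. Each runs from 60 bases before to 15 bases after an ATTGG, the core of the Y box, and lies upstream of the gene's start on chromosome 17. Capitals mark ATTGG and, upstream of it, the letters searched for the X box: GCAAC, or AAC followed after any 3 bases by TGATG (the long X box below). These letters were chosen after the promoters had been seen. The AAC of the long X box can lie inside GCAAC.
H2-Aa: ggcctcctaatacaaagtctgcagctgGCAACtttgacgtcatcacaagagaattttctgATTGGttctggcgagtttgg
H2-Eb1: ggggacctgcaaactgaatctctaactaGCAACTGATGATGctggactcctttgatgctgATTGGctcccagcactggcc
H2-DMb1: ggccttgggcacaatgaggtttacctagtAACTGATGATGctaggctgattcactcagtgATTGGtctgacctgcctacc
H2-DMb2: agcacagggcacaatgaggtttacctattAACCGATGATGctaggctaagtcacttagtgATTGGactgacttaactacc
H2-Oa: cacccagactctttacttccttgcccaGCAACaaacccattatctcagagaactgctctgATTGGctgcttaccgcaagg
H2-Ob: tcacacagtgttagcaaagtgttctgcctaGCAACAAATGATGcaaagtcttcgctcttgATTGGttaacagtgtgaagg

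The stretches lie at chr17:34287852-34287931 (minus strand) for H2-Aa, chr17:34305748-34305827 for H2-Eb1, chr17:34153070-34153149 for H2-DMb1, chr17:34145099-34145178 for H2-DMb2, chr17:34092276-34092355 for H2-Oa and chr17:34238788-34238867 for H2-Ob, all but the first on the plus strand. ATTGG starts between 43 (H2-Oa) and 90 (H2-DMb2) bases before the gene's start. The long X box starts 30 bases before ATTGG in H2-Eb1, 31 in H2-DMb1, 31 in H2-DMb2 and 28 in H2-Ob. In H2-Aa and H2-Oa the GCAAC starts 33 bases before it. Over all 32817 promoter windows of the table, on either strand, 37.4% hold ATTGG, 35.2% hold GCAAC and 0.616% hold the long X box. The long X box followed by ATTGG, with starts 20 to 45 bases apart on the gene's strand, was found in 5 windows (0.0152%), those of H2-Eb1, H2-DMb1, H2-DMb2, H2-Ob and 1700048F04Rik. H2-DMb1 and H2-DMb2 share 67 of the 80 bases shown, while no other couple among the 6 shares more than 33. GCAAC followed by ATTGG in the same way was found in 197 windows (0.6%), among them those of H2-Aa and H2-Oa, in which the long X box was not found. H2-DMa has 2 windows in the table, 1 with GCAAC and 1 with ATTGG, and neither holds both. H2-Ab1, Cd74 and Ciita have no sequence shown.

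Of the 10 members, 5 were higher than the pool in DMBA-treated tumours and 1 was lower, against 26.1% and 31.7% of all 19087 genes (limma, adjusted p under 0.05). In untreated tumours 6 of 9 were higher and 1 lower, against 28.8% and 32.1% of all 16887 genes. The same shares are the scale for the counts of the other lists here. The median log2 ratio of the members was 0.79 in DMBA-treated and 0.61 in untreated tumours, where the median over all genes was -0.02 and 0.00. The first covers 10 members, with H2-DMb2, and the second 9. Among the 9 members in both tables the middle gene was H2-Ab1 in each group, at 0.58 and 0.61. H2-DMb1 was the highest member and H2-Eb1 the lowest in both groups. Against a ratio of 1.5-fold instead of 0, 3 members stayed higher in each group and 0 lower. These were H2-DMb1, H2-DMb2 and Ciita in DMBA-treated tumours, and H2-DMb1, H2-DMa and H2-Aa in untreated tumours. Of all genes, 8.44% were higher and 18.2% lower against 1.5-fold in DMBA-treated tumours, and 7.67% and 16.3% in untreated tumours.

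**Figure D1:**
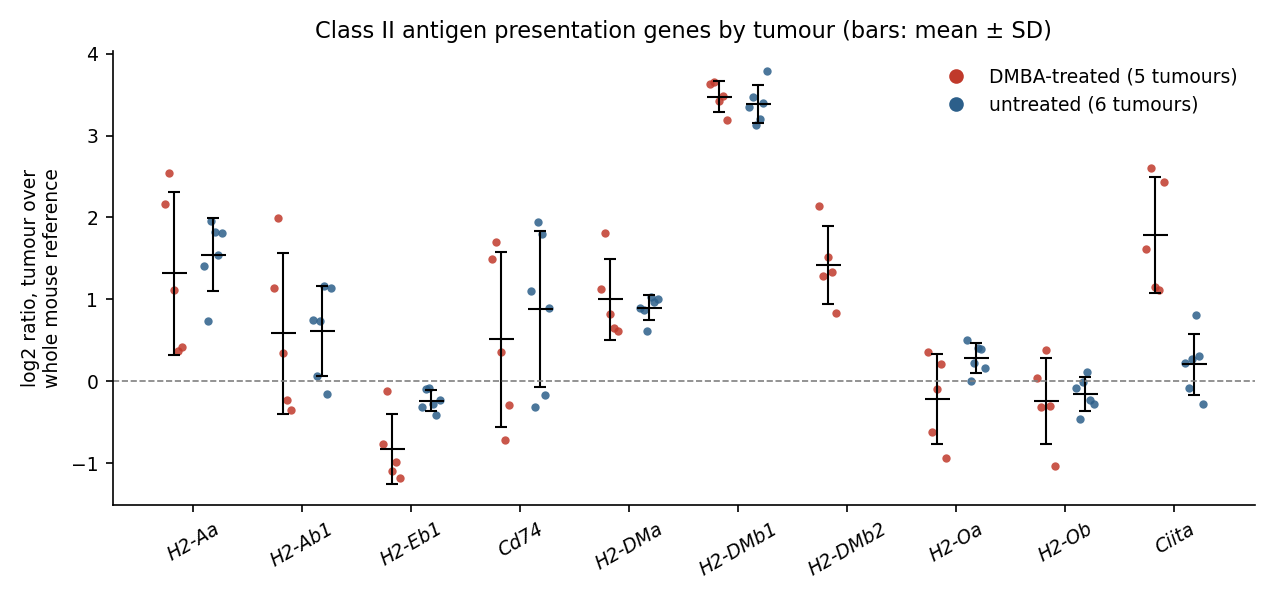
Log2 ratio of tumour over whole mouse pool for the 10 class II genes, 1 point a tumour, with DMBA-treated tumours in red (n = 5) and untreated tumours in blue (n = 6); black bars give the mean ± SD. H2-DMb1 lies above 3 in every tumour, Ciita is the member whose groups do not overlap, and H2-Aa, H2-Ab1 and Cd74 spread widest.

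Among the peptide editors, H2-DMb1, a beta chain of H2-DM, stood highest. It read 3.63, 3.65, 3.43, 3.48 and 3.19 in DMBA-treated tumours 1 to 5, and 3.35, 3.48, 3.13, 3.20, 3.40 and 3.79 in untreated tumours 1 to 6. The groups overlap, and all 11 tumours lie in a narrow band far above the pool. The means were 3.48 ± 0.19 (SD, n = 5), or 11.1-fold (adjusted p = 1.19e-06), and 3.39 ± 0.23 (SD, n = 6), or 10.5-fold (adjusted p = 4.78e-09). Its mean was at percentile 99.7 of all genes in the DMBA table and 99.8 in the untreated table.

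H2-DMa encodes the alpha chain that H2-DMb1 needs to form the editor. Its values were 1.12, 1.81, 0.82, 0.65 and 0.61 in DMBA-treated tumours, against 0.89, 0.87, 0.61, 1.03, 0.96 and 1.01 in untreated tumours. All 11 tumours were above the pool, at means of 1.002 ± 0.49 (adjusted p = 0.00364, n = 5) and 0.90 ± 0.15 (1.86-fold, adjusted p = 1.86e-05, n = 6). The ratio of H2-DMb1 exceeded that of its partner in every tumour, by 2.47 ± 0.37 in DMBA-treated and 2.49 ± 0.20 in untreated tumours. This compares their distances from the pool, not their transcript levels.

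H2-DMb2, the neighbouring copy of the beta chain gene, was measured by 2 features in the DMBA-treated tumours, and they did not read alike. One read 2.72, 2.28, 2.71, 1.96 and 2.43 in tumours 1 to 5, a mean of 2.42 ± 0.32 (adjusted p = 1.23e-05 over single features). The other read 1.56, 0.28, 0.34, 0.71 and -0.78, a mean of 0.42 ± 0.84 (adjusted p = 0.276). In no tumour does the second feature reach the first. Their average of 1.42 ± 0.48 was called higher (adjusted p = 0.000598), and the call ended when only the more variable feature was kept (adjusted p = 0.304). Whether a feature of either beta chain gene reads the other copy was not tested.

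**Figure D2:**
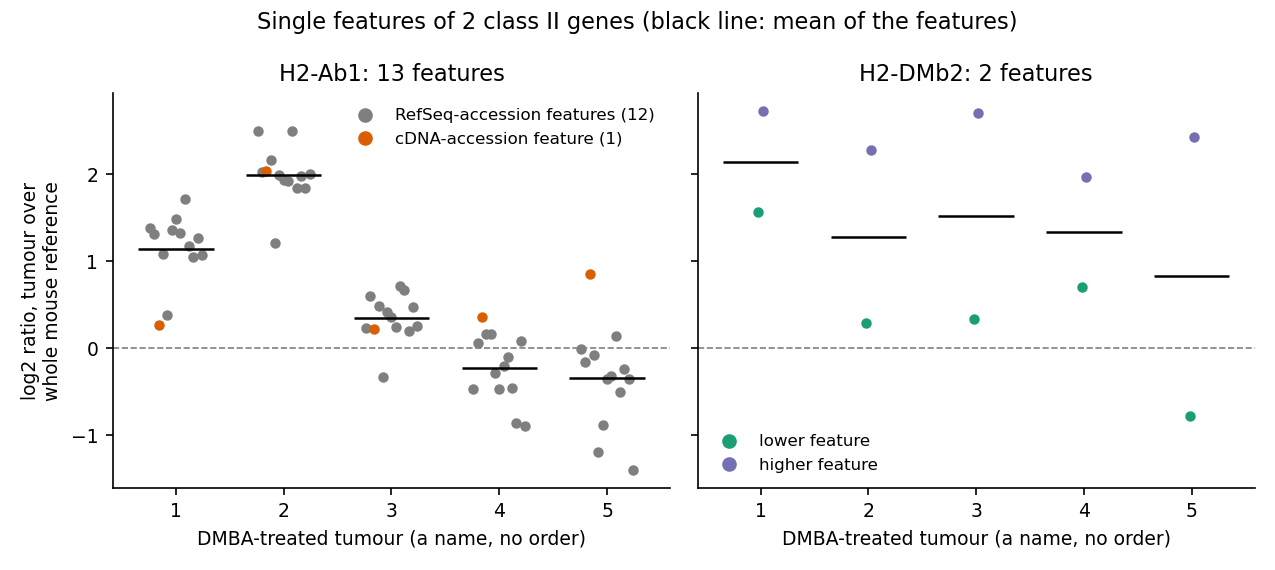
Log2 ratio of tumour over whole mouse pool for single array features in the 5 DMBA-treated tumours, with the mean of the features as a black line. All 13 features of H2-Ab1 are highest in tumour 2, the feature of the other accession (orange) lies above the rest in tumour 5 at 0.85, and the 2 features of H2-DMb2 (green and purple) stay apart in every tumour.

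The chains that form the peptide groove differed from each other. H2-Aa, the A alpha chain gene, read 2.16, 2.54, 1.11, 0.36 and 0.41 in DMBA-treated tumours, against 1.41, 0.74, 1.95, 1.83, 1.54 and 1.81 in untreated tumours. It was above the pool in all 11, at 1.32 ± 0.997 (2.49-fold, adjusted p = 0.0165, n = 5) and 1.55 ± 0.44 (2.92-fold, adjusted p = 2.17e-05, n = 6). Tumours 1 and 2 lie at the top of the DMBA-treated group and tumours 4 and 5 at the bottom, and the range of that group spans the untreated one. Without DMBA-treated tumour 1 the call in that group ended (adjusted p = 0.0507).

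H2-Ab1 encodes the A beta chain, the partner of H2-Aa. Its values were 1.14, 1.996, 0.35, -0.23 and -0.35 in DMBA-treated tumours, against 0.75, 0.06, 0.74, 1.16, -0.16 and 1.14 in untreated tumours. The same DMBA-treated tumours as for H2-Aa are high and low, and the groups overlap. The mean of 0.58 ± 0.99 did not pass in DMBA-treated tumours (adjusted p = 0.196, n = 5), and 0.61 ± 0.55 passed in untreated tumours (adjusted p = 0.0170, n = 6), though not without untreated tumour 4 (adjusted p = 0.0502). The DMBA table holds 13 features of H2-Ab1, with averages from 0.05 to 0.99. All 13 were highest in tumour 2, and their adjusted p ran from 0.0556 to 0.913 in a fit over single features. Within a tumour the features had an SD of 0.27 to 0.58, against an SD of 0.99 between tumours. Of the 13, 12 share an accession, and the labels do not say whether they repeat a probe. The feature of the other accession stood apart in tumour 5, at 0.85, where the others ran from -1.40 to 0.14. It was also the lowest of the 13 in tumour 1, at 0.26, and the highest in tumour 4, at 0.36. Apart from tumour 2, its order of tumours was not that of the average.

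H2-Eb1, the E beta chain gene, went the other way. It read -0.77, -0.12, -1.09, -0.99 and -1.18 in DMBA-treated tumours, against -0.32, -0.10, -0.09, -0.28, -0.41 and -0.23 in untreated tumours. All 11 tumours were below the pool, at means of -0.83 ± 0.43 (adjusted p = 0.00522, n = 5) and -0.24 ± 0.13 (adjusted p = 0.0331, n = 6). DMBA-treated tumour 2 alone lies within the untreated range. The untreated call rests on a small shift and ended without untreated tumour 1, 4, 5 or 6 (adjusted p between 0.0587 and 0.0955).

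H2-Ea, whose gene RefSeq lists as a transcribed pseudogene in C57BL/6J, read 0.47, 0.24, 0, -0.74 and 0 in DMBA-treated tumours, with exact zeros in 2 of 5. In untreated tumours it read 1.05, 0.63, 1.22, 1.68, 0.30 and 1.42. The means were -0.01 ± 0.45 (adjusted p = 0.978) and 1.05 ± 0.51 (adjusted p = 0.000598), and the highest DMBA-treated value lies above the lowest untreated one. H2-Eb2, a second E beta gene, averaged 0.66 ± 0.56 in DMBA-treated tumours (adjusted p = 0.0331) and was not analysed in the untreated ones. Its 2 features did not read alike, at -0.05 and 1.72 in DMBA-treated tumour 1. They averaged 0.48 ± 0.73 (adjusted p = 0.170) and 0.84 ± 0.68 (adjusted p = 0.0254) in the limma fit over single features.

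Cd74, the invariant chain gene, varied most among the members in both groups. It read 1.49, 1.70, 0.36, -0.71 and -0.29 in DMBA-treated tumours, against 1.10, -0.32, 1.95, 1.79, -0.17 and 0.89 in untreated tumours. The highest tumour exceeds the lowest by 5.34-fold in the DMBA-treated group and by 4.80-fold in the untreated group, and each group has 2 tumours below the pool. The mean was 0.51 ± 1.07 in DMBA-treated tumours (adjusted p = 0.286, n = 5) and 0.88 ± 0.95 in untreated tumours (adjusted p = 0.0304, n = 6). Only the untreated mean passed, and it lost its call without untreated tumour 1, 3, 4 or 6 (adjusted p between 0.0585 and 0.0870). In bulk tumour RNA, fewer cells of a type and less RNA per cell cannot be told apart.

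H2-Oa and H2-Ob, the chains of the H2-O inhibitor, lay near the pool. H2-Oa read 0.36, -0.62, -0.10, 0.21 and -0.94 in DMBA-treated tumours, against 0.51, 0.00, 0.22, 0.41, 0.39 and 0.16 in untreated tumours. Values fall on both sides of 0 in the DMBA-treated group, with a mean of -0.22 ± 0.55 (adjusted p = 0.405), and lie at or just above it in the untreated group, with a mean of 0.28 ± 0.19 (adjusted p = 0.0266). The untreated call ended without tumour 1, 4 or 5 (adjusted p between 0.0643 and 0.0854). H2-Ob averaged -0.25 ± 0.53 (adjusted p = 0.329, range -1.03 to 0.38) and -0.16 ± 0.21 (adjusted p = 0.189, range -0.47 to 0.11), and neither group passed. Of its 2 features in the DMBA table, 1 holds an exact zero in 3 of 5 tumours.

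Ciita was the member whose groups did not overlap. It read 1.61, 2.61, 1.15, 1.11 and 2.44 in DMBA-treated tumours, against 0.22, -0.09, 0.27, 0.81, 0.30 and -0.28 in untreated tumours. Every DMBA-treated value lies above every untreated one. The means were 1.78 ± 0.71 (3.44-fold, adjusted p = 0.000979, n = 5) and 0.21 ± 0.37 (adjusted p = 0.218, n = 6), a difference of 1.58. Of the 9 members in both tables, 1 (Ciita) lay wholly above and 0 wholly below, beside 8.37% and 9.84% of all 16351 genes in both tables. With DMBA-treated tumour 2 left out, H2-Eb1 lay wholly below as well. No test was made between the groups, because each group was run on its own array platform and group and platform cannot be told apart. Ciita has a single feature in each table, and whether these read the same transcript was not tested. Among the 7 luminal genes the difference was widest for Esrp1, at 3.27 (3.13 ± 0.13 in the DMBA table and -0.14 ± 0.43 in the untreated table). For the other luminal genes it ran from -0.55 (Cdh1) to 0.63 (Epcam).

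The genes of the proteins on which Ciita docks were called in both directions. In DMBA-treated tumours 4 of 7 genes for them were higher and 1 lower, and in untreated tumours 4 were higher and 2 lower. Over all genes 26.1% were higher and 31.7% lower in DMBA-treated tumours, and 28.8% and 32.1% in untreated tumours. For the RFX subunits, Rfxank was at 0.97 ± 0.33 against -0.37 ± 0.38, Rfx5 at 0.55 ± 0.26 against -0.08 ± 0.26, and Rfxap at -0.03 ± 0.17 against 0.26 ± 0.16. Of these, Rfxank and Rfx5 passed as higher in DMBA-treated tumours (adjusted p = 0.00112 and 0.00852), while in untreated tumours Rfxank passed as lower (adjusted p = 0.0411) and Rfxap as higher (adjusted p = 0.0310). For NF-Y, Nfya stood at -0.54 ± 0.18 in DMBA-treated and 0.69 ± 0.17 in untreated tumours, both called (adjusted p = 0.00422 and 0.000128). Of the 7 genes, Rfxank lay wholly above and Nfya wholly below, where 8.37% and 9.84% of all genes in both tables did so. Nfyb was at -0.28 ± 0.19 and -0.69 ± 0.15, and Nfyc at 0.71 ± 0.27 and 0.62 ± 0.42. Creb1, whose protein binds the X box, was at 0.33 ± 0.11 and 0.34 ± 0.23. As for Ciita, group and array platform cannot be told apart in these differences.

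H2-Aa, H2-Ab1 and Cd74 were high and low in much the same tumours. In the DMBA-treated group tumour 2 was highest, tumour 1 next and tumour 3 in the middle for each of these genes. In the untreated group tumour 4 was among the 2 highest for each, and tumours 2 and 5 were the 2 lowest for Cd74 and for H2-Ab1. A class II profile was taken as the mean of H2-Aa, H2-Ab1, H2-Eb1 and Cd74 in each tumour. It stood at 1.01, 1.53, 0.18, -0.39 and -0.35 in DMBA-treated tumours and at 0.74, 0.10, 1.14, 1.12, 0.20 and 0.91 in untreated tumours.

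Likeness to the profile was measured as Pearson's r over 11 tumours after each group's mean was taken off, with a core gene set against the mean of the other 3. It was 0.94 for H2-Ab1, 0.92 for H2-Aa, 0.87 for Cd74 and 0.69 for H2-Eb1. Outside the profile it was 0.74 for H2-DMa, 0.43 for H2-Ob, 0.41 for Ciita, 0.27 for H2-DMb1 and 0.08 for H2-Oa. Within the DMBA-treated group (n = 5) r was 0.99 for H2-Ab1, 0.99 for H2-Aa, 0.96 for Cd74, 0.86 for H2-Eb1, 0.95 for H2-DMa and 0.81 for H2-DMb1. Within the untreated group (n = 6) it was 0.80 for H2-Ab1, 0.73 for H2-Aa, 0.90 for Cd74, 0.09 for H2-Eb1, -0.18 for H2-DMa and -0.33 for H2-DMb1. The pooled figures for H2-Eb1 and the H2-DM chains thus come from the DMBA-treated tumours. All values of a tumour come from 1 array and share its labelling and scaling, so r is given as a description. In the DMBA table the SD between tumours was at percentile 96.2 of all genes for Cd74, 95.2 for H2-Aa and 95.1 for H2-Ab1, but 19.1 for H2-DMb1. In the untreated table it was at percentile 97.9, 82.2 and 90.2 for the same genes and 36.0 for H2-DMb1.

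The 5 genes outside the list most like the profile, of 8302 with enough spread, were Rgs10 (r = 0.96), Ncf4 (0.91), Akr1d1 (0.89), Hs6st2 (0.89) and Trgv2 (0.89), each over 11 tumours. Within the DMBA-treated group r ran from 0.89 (Trgv2) to 0.98 (Akr1d1). Within the untreated group it was 0.96 for Rgs10, 0.93 for Ncf4, 0.57 for Akr1d1, 0.64 for Hs6st2 and 0.91 for Trgv2. Because the 5 genes were chosen for this likeness, their order of tumours follows largely from the choice. All 5 were highest in DMBA-treated tumour 2 within their group, and Rgs10 lay at -0.49 there, against -1.52 in DMBA-treated tumour 5. Among untreated tumours Rgs10 was lowest in tumour 2, at -1.27, and highest in tumour 3, at -0.71.

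Markers of the cells that make class II proteins at all times lay on both sides of the pool. For all genes the shares called higher and lower were 26.1% and 31.7% in DMBA-treated tumours, and 28.8% and 32.1% in untreated tumours. Of 8 B cell genes measured, 0 were higher (1 at an unadjusted p under 0.05) and 2 lower in DMBA-treated tumours by limma, and 2 were higher and 2 lower in untreated tumours. Cd79b, part of the B cell receptor, was the lowest in both, at -2.83 ± 0.46 and -2.51 ± 0.20. Cd22 was the highest in DMBA-treated tumours (0.60 ± 0.62, not called) and Pax5 in untreated tumours (0.32 ± 0.23). Of 9 dendritic cell genes, 1 was higher and 1 lower in DMBA-treated tumours, and 3 and 2 in untreated tumours. Itgax, which encodes CD11c, led both groups at 1.18 ± 0.38 and 1.70 ± 0.41, while Clec9a was lowest in DMBA-treated tumours (-0.54 ± 0.30) and Zbtb46 in untreated tumours (-1.26 ± 0.31).

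Of the macrophage genes, 2 of 10 were higher and 2 lower in DMBA-treated tumours, and 4 of 11 and 4 in untreated tumours. Cd14, a receptor for bacterial lipopolysaccharide, was highest at 1.93 ± 1.06 and 2.44 ± 0.63, and the mannose receptor gene Mrc1 lowest at -2.81 ± 1.18 and -2.84 ± 0.69. T cell genes were lower for 5 of 8 and for 3 of 8, and higher for 0 in both groups. Beside these counts, 31.7% and 32.1% of all genes were lower, and 26.1% and 28.8% higher, in DMBA-treated and untreated tumours. Cd3d was the lowest T cell gene at -2.19 ± 0.40 and -1.11 ± 0.36. At an unadjusted p under 0.05, too, 0 T cell genes were higher in either group. Cd4 (0.16 ± 0.16) was highest among them in DMBA-treated tumours and Cd3e (0.10 ± 0.12) in untreated tumours, neither called. Of 5 pan-leukocyte genes, 0 were higher (0 also unadjusted) and 3 lower in DMBA-treated tumours, and 1 higher and 2 lower in untreated tumours. Their lowest were Ptprc, the CD45 gene, at -1.31 ± 0.44 and Coro1a at -1.17 ± 0.29, and their highest Cd37 at 0.18 ± 0.28 and Cd53 at 0.30 ± 0.23. Luminal markers ran from -0.13 ± 1.19 (Cdh1) to 4.04 ± 0.19 (Elf5) in DMBA-treated tumours and from -0.14 ± 0.43 (Esrp1) to 3.87 ± 0.31 (Elf5) in untreated tumours.

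The cell marker lists were set against the class II profile within each group, with no test of a difference between the groups. The mean log2 ratio of the T cell list ran from -1.12 to -0.32 over the DMBA-treated tumours and from -0.43 to 0.08 over the untreated tumours. Its r with the profile was 0.82 in the DMBA-treated group (n = 5) and 0.66 in the untreated group (n = 6). The pan-leukocyte list ran from -0.88 to -0.16 (r = 0.94) and from -0.42 to -0.04 (r = 0.07). The macrophage list ran from -0.63 to 0.10 (r = 0.75) and from -0.22 to 0.17 (r = 0.27). Its untreated range covers 11 genes, while r was taken over the 10 measured in both groups. The dendritic cell list spanned 0.00 to 0.33 (r = 0.85) and 0.01 to 0.19 (r = -0.35), and the B cell list -0.56 to -0.28 (r = 0.26) and -0.30 to -0.21 (r = 0.81). The organ lists used for the ratio's direction give a scale: the liver list had r = 0.79 and -0.22, the muscle list 0.84 and -0.58, and the brain list 0.66 and 0.21. DMBA-treated tumour 2, the highest for class II, had the highest T cell, pan-leukocyte and macrophage means of its group. Its macrophage lead was small, at 0.103 against 0.097 in tumour 3. DMBA-treated tumour 1 had the highest B cell and dendritic cell means, at -0.28 and 0.33, against -0.42 and 0.27 in tumour 2. The liver and brain lists, too, were highest in DMBA-treated tumour 2. DMBA-treated tumours 4 and 5 had the lowest pan-leukocyte and macrophage means. A ratio to the pool has no true zero, so no marker can be called absent. The part of these cells in the class II values was not tested.

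**Figure D3:**
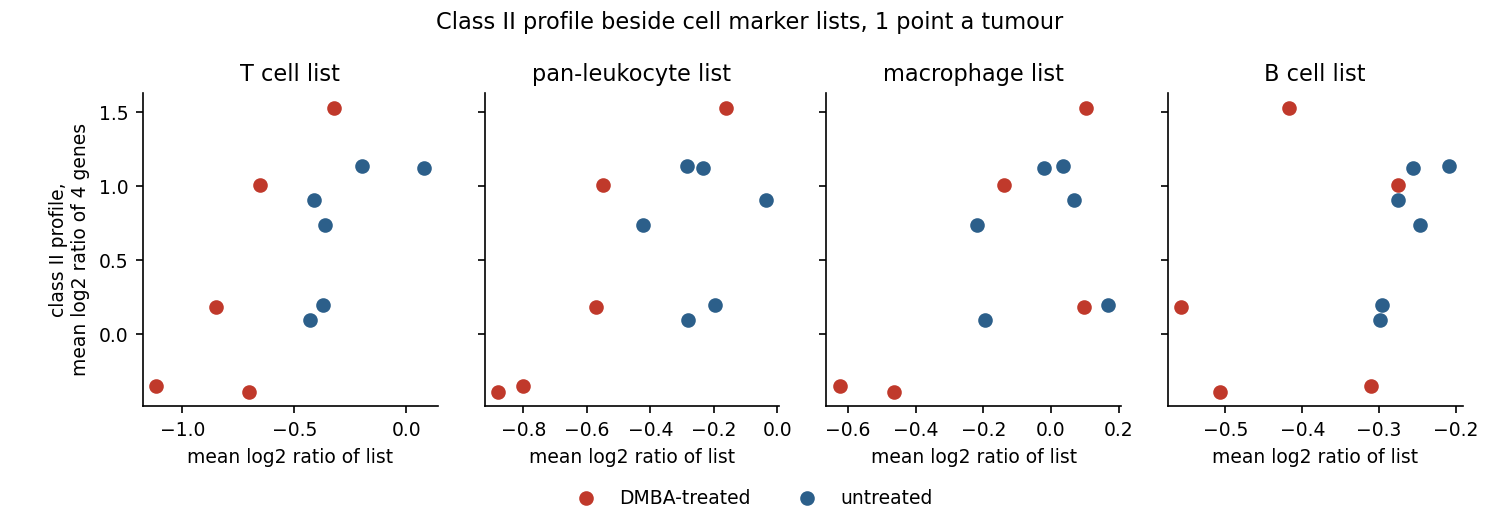
Class II profile (vertical axis, mean log2 ratio of H2-Aa, H2-Ab1, H2-Eb1 and Cd74) against the mean log2 ratio of 4 cell marker lists (horizontal axes), 1 point a tumour, DMBA-treated in red and untreated in blue. In the DMBA-treated group the tumour with the highest profile, at 1.53, lies furthest right for the T cell, pan-leukocyte and macrophage lists, but not for the B cell list. Untreated tumours of low and high profile share much of the pan-leukocyte and macrophage range.

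Interferon gamma, the outside signal for Ciita, was itself not seen above the pool. Ifng was at -0.04 ± 0.13 (adjusted p = 0.780) in DMBA-treated and -0.04 ± 0.18 (adjusted p = 0.742) in untreated tumours. Of 13 genes of its pathway, 6 were higher and 1 lower in DMBA-treated tumours, and 7 and 3 in untreated tumours. The shares of all genes were 26.1% higher and 31.7% lower in DMBA-treated tumours, and 28.8% and 32.1% in untreated tumours. The induced GTPase gene Gbp3 was highest at 2.85 ± 1.53 and 2.30 ± 1.55, the receptor gene Ifngr1 was lowest in DMBA-treated tumours (-1.40 ± 0.28) and the feedback inhibitor Socs1 in untreated tumours (-1.53 ± 0.60). Gbp3 read 0.57, 4.21, 2.38, 2.77 and 4.31 in DMBA-treated tumours, against 2.43, 0.15, 1.99, 4.97, 2.12 and 2.13 in untreated tumours. It was high in DMBA-treated tumours 2 and 5, the first the highest of its group for the class II profile and the other among the lowest. In untreated tumours it was highest in tumour 4 and lowest in tumour 2, which has the lowest profile. The mean of the pathway's list had r = 0.19 with the profile in the DMBA-treated group and 0.64 in the untreated group.

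Genes for class II loading and turnover moved both ways. In DMBA-treated tumours 4 of 8 were higher and 3 lower, and in untreated tumours 5 and 3. Among all genes 26.1% were higher and 31.7% lower in DMBA-treated tumours, and 28.8% and 32.1% in untreated tumours. The tetraspanin gene Cd82 was highest in DMBA-treated tumours (1.81 ± 0.21) and Ctss, the protease that trims the invariant chain in antigen-presenting cells, in untreated tumours (1.64 ± 0.55). Ctsl, a protease of the same family, was lowest in both at -1.99 ± 0.50 and -1.53 ± 0.40. Co-stimulation genes were called for 1 of 6 higher and 1 lower in DMBA-treated tumours, and 0 higher (0 also unadjusted) and 1 lower in untreated tumours. There the highest were Cd274 (0.77 ± 0.71) in DMBA-treated and Cd86 (0.15 ± 0.22, not called) in untreated tumours, and the lowest Pdcd1lg2 (-2.93 ± 2.49) and Icosl (-0.55 ± 0.49).

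The members on chromosome 17 share their region with class I genes. In RefSeq order the stretch runs H2-Oa, Brd2, H2-DMa, H2-DMb2, H2-DMb1, Psmb9, Tap1, Psmb8, Tap2, H2-Ob, H2-Ab1, H2-Aa, H2-Eb1, H2-Eb2 and H2-Ea. Psmb9 and Psmb8 encode immunoproteasome subunits and Tap1 and Tap2 the transporter that feeds peptides to class I. These 4 were higher than the pool in both groups, at 3.13 ± 0.71, 3.23 ± 0.64, 2.69 ± 0.58 and 2.72 ± 0.30 in DMBA-treated tumours and 2.26 ± 0.70, 2.94 ± 0.91, 2.11 ± 0.75 and 2.19 ± 0.60 in untreated tumours. With H2-DMb1 they form a run of 5 neighbours whose means all exceed 2 in both groups, while H2-Ob, next in line, is near 0. Tap2 exceeded H2-Ob in every tumour, by 2.31 to 4.27 in DMBA-treated and 1.16 to 2.86 in untreated tumours. Of the wider class I list 8 of 9 genes were higher in DMBA-treated tumours and 8 of 8 in untreated tumours, between Nlrc5 (0.54 ± 0.56, not called) and H2-D1 (3.95 ± 0.34), and between Tapbp (1.83 ± 0.37) and Psmb8. Among all genes 26.1% were higher in DMBA-treated and 28.8% in untreated tumours.

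**Figure D4:**
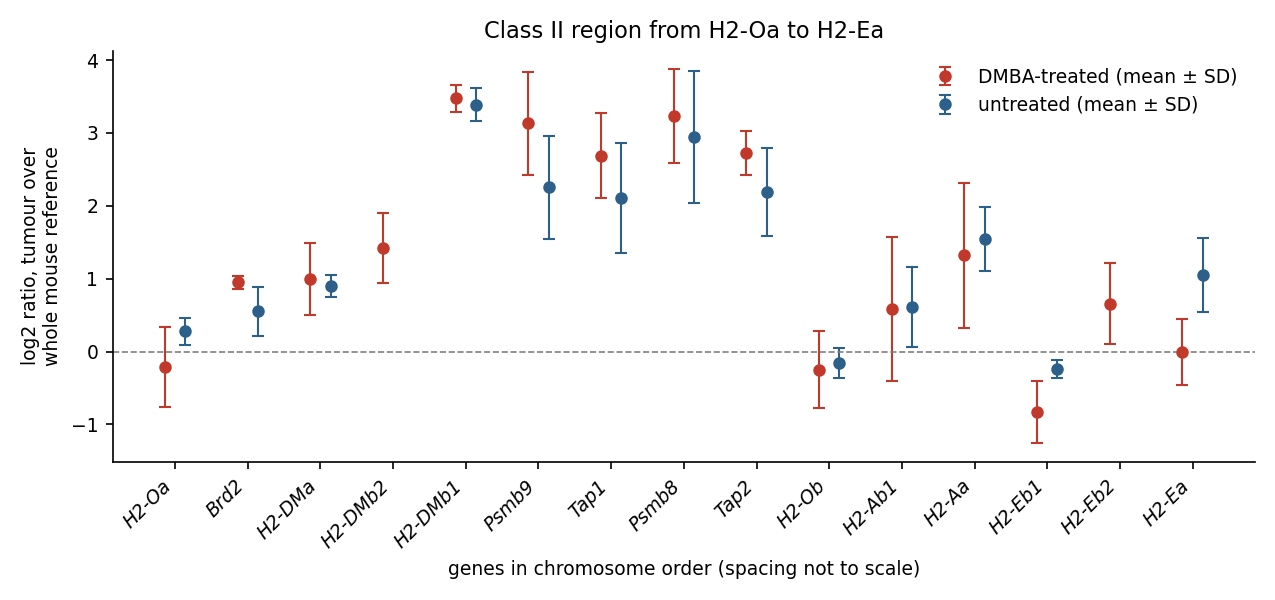
Mean log2 ratio of tumour over whole mouse pool, with SD bars, for the genes from H2-Oa to H2-Ea in chromosome order, DMBA-treated tumours in red and untreated tumours in blue. The means from H2-DMb1 to Tap2 lie above 2 in both groups, and H2-Ob to its right lies near 0.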

How the data were processed

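The authors deposited log2 ratios of 2-colour arrays in 2 tables, 1 for each group and its array platform. The log base and direction are not stated; log2 was taken from the values, which run from -10.70 to 8.37. Array medians lie between -0.013 and 0.008. Background correction, normalization and filters are not given in the sources used here. Gene names came from the platform annotation and were checked by Entrez identifier against GRCm38.p6 (33517 of 33653 and 18445 of 18658 features matched); features of a gene were averaged. Each group was tested against the pool over all genes with limma 3.58.1 in R 4.3.3 (intercept, eBayes, two-sided, Benjamini-Hochberg, adjusted p under 0.05), and the fit was tested on simulated data. Tumours were numbered in accession order. The members and lists were chosen with earlier results of these data known. Named genes are all members, all docking factor genes, the highest and lowest gene of each other list in each group, and the 5 genes most like the class II profile (centred SD at least 0.3). Ifng, the differences of luminal genes between the groups and neighbours of the members on chromosome 17 were added after values were seen. Alternatives were other summaries of features, a fit over single features, means at least 1 apart, quantile normalization, zeros as missing, a test against 1.5-fold, a robust prior, tumours left out, DMBA-treated tumours 3 and 4 (whose titles share a number) averaged, and, chosen after seeing the data, features whose accession is in both tables.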

Additional observations from a re-analysis of the deposited data

How the results depend on the processing

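No member's value changed sign under the alternatives that give 1 value a gene; of the single features, 1 of H2-Oa averaged 0.08 in DMBA-treated tumours, where the gene was at -0.22. Of 246 member values under alternatives, 225 stayed on their side of the threshold and 21 lost their call. Against 1.5-fold the members called were 3 higher and 0 lower in DMBA-treated and 3 higher and 0 lower in untreated tumours. The shares of all genes were then 8.44% higher and 18.2% lower in DMBA-treated tumours, and 7.67% and 16.3% in untreated tumours. With 1 tumour left out at a time, 4 to 5 members were higher and 1 lower in DMBA-treated tumours, and 3 to 6 higher and 0 to 1 lower in untreated tumours. There the 3 came without tumour 4, 4 came without tumour 1, and the 0 came without tumour 1, 4, 5 or 6. In these runs 22.4% to 24.9% of all genes were higher and 28.9% to 31.0% lower in DMBA-treated tumours. For untreated tumours the shares were 25.3% to 27.6% higher and 29.5% to 31.5% lower. In the comparison of the groups side by side, 1 member lay wholly above each time, and 0 to 1 wholly below (H2-Eb1, without DMBA-treated tumour 2). Median features, the feature of highest SD, means at least 1 apart, quantile normalization, zeros as missing, a robust prior, a fit over single features, tumours 3 and 4 averaged, and shared accessions left each count within 1.5 times of its value. The calls of H2-DMb1 in both groups and of Ciita in DMBA-treated tumours held under each alternative run, with adjusted p at most 2.64e-05, 1.69e-07 and 0.0066. No paired analysis was possible because the tumour numbers are accession order and pair nothing. The pair of DMBA-treated tumours 3 and 4 correlated at r = 0.86 over all features, the highest of the group, whose pairs started at 0.79. Signal over background is unknown, so dim features cannot be told from bright ones.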
